A study of Mus musculus with 2 samples.

Results

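The miR-181 family comprises 6 miRNA genes in the mouse annotation, Mir181a-1, Mir181b-1, Mir181a-2, Mir181b-2, Mir181c and Mir181d. They were taken by gene name from the 2202 miRNA genes of the files, and all 6 were found. The microRNA libraries came from a calf muscle, the gastrocnemius, taken at 10 days of age from 2 female mice of the strain B6CASTF1/J, a first-generation cross of C57BL/6 with CAST. The labels give total RNA as the material and a size range under 30 bases. No treatment is named in the labels, and both mice carry the same genotype, so there is 1 group with n = 2 and no contrast between stages of muscle differentiation. The labels give the samples separate animal and biosample numbers but the same donor entry, and they were taken here as 2 animals, numbered 1 and 2 as in the labels. The spread between them may be partly technical. In whole tissue, fewer cells of a type and less RNA per cell cannot be told apart.

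A miRNA gene is transcribed as a hairpin whose 5′ arm (5p) and 3′ arm (3p) can each give a mature miRNA. Bases 2 to 8 of the mature miRNA, the seed, are the main determinant of which messages it binds. The miR-181 family is known from muscle, where it was described to rise as myoblasts differentiate and to act on the homeobox regulator Hoxa11. It is equally known from lymphocyte development and from vascular endothelium. The genes lie as 3 pairs at 3 loci, each pair combining 2 different members.

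The sequences are shown first, because they set what a count on each gene can hold. The mature 5p miRNAs of the family are printed below with the seed in capitals (RefSeq, build GRCm38.p6).
miR-181a-5p: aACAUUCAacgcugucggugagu
miR-181b-5p: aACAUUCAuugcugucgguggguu
miR-181c-5p: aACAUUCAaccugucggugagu
miR-181d-5p: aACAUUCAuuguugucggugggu

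All 6 genes shared the 5p seed ACAUUCA. In the RefSeq table of 1738 mature entries, 6 entries had this seed, and 0 of them lay outside the family. The members differed after the seed. Counted from the 5′ end of miR-181a-5p, miR-181b-5p differed by A9U, C10U and A21G over 23 compared bases. Counted from the 5′ end of miR-181b-5p, miR-181d-5p differed by C12U alone over the same length. miR-181c-5p equalled miR-181a-5p with the G at position 11 deleted.

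The 3p arms told the copies apart and are printed for that reason, again with the seed in capitals.
miR-181a-1-3p: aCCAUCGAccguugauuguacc
miR-181a-2-3p: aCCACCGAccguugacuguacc
miR-181b-1-3p: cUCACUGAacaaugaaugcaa
miR-181b-2-3p: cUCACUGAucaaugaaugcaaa
miR-181c-3p: aCCAUCGAccguugaguggacc
miR-181d-3p: cCCACCGGgggaugaauguca

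The 3p arms held 4 seeds against 1 for the 5p arms. miR-181a-1-3p and miR-181c-3p shared CCAUCGA, and both miR-181b 3p arms shared UCACUGA. miR-181a-1-3p and miR-181a-2-3p differed by U5C, in the seed, and by U16C. miR-181b-1-3p and miR-181b-2-3p differed by A9U, just after the seed, over 21 compared bases, and in length (21 and 22 bases). Positions are counted from the 5′ end of the arm named first. Both arms of a hairpin are summed in a gene count, so the arms themselves were not measured separately.

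The annotated precursors follow (GENCODE M21, build mm10, 5′ to 3′). Capitals mark the longest stretch that each gene has in common with its counterpart, namely Mir181a-1 with Mir181a-2, Mir181b-1 with Mir181b-2 and Mir181c with Mir181d.
Mir181a-1: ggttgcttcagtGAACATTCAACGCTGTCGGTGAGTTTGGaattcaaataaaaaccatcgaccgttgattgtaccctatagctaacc
Mir181a-2: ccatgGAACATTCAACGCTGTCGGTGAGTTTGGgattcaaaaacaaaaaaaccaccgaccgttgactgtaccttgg
Mir181b-1: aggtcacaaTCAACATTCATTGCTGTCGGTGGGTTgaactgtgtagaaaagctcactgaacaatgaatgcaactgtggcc
Mir181b-2: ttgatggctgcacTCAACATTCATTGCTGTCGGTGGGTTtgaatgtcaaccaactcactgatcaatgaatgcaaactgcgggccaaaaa
Mir181c: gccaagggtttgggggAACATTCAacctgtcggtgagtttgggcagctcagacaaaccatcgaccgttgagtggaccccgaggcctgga
Mir181d: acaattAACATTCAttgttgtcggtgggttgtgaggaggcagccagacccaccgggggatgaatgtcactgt

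The common stretch was 28 bases long between the miR-181a copies, 26 bases between the miR-181b copies and 8 bases between Mir181c and Mir181d. It contains the whole 5p arm in both copied pairs. Reads that aligned to several places were set aside in these files and counted on no gene. A read of exactly miR-181a-5p or miR-181b-5p therefore cannot be counted on any of these 4 genes. A read of miR-181a-5p becomes particular to its copy, among annotated precursors, with 5 further templated bases at the 3′ end or 2 at the 5′ end. For miR-181b-5p it takes 1 further base at the 3′ end or 3 at the 5′ end. All 6 3p arms and the 5p arms of Mir181c and Mir181d occur in no other annotated precursor.

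Windows of 22 bases gave the same division. Of the windows in each precursor, 7 of 66 in Mir181a-1, 7 of 55 in Mir181a-2, 5 of 59 in Mir181b-1 and 5 of 68 in Mir181b-2 occurred in another annotated precursor, which was the copy in every case. Mir181c and Mir181d had 0 of 68 and 0 of 51 such windows. Over all 332 detected miRNA genes (at least 2 counts per 1e6 reads on miRNA genes in both animals), 59 (17.8%) had at least 1 such window, beside 4 of the 6 miR-181 genes. Over all 2202 miRNA genes, detected or not, 1032 (46.9%) had one. Detection rests on reads placed at a single site, so the detected genes may be short of genes with shared sequence.

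**Figure D1:**
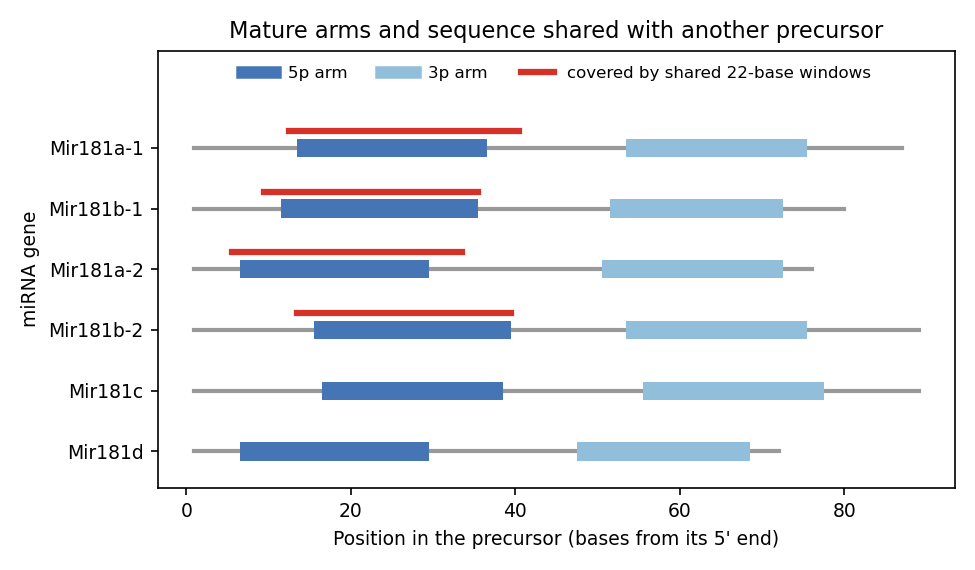
Precursors of the 6 miR-181 genes drawn to scale from their 5′ end in bases, with the 5p arm in dark blue, the 3p arm in light blue and a red line over bases covered by 22-base windows that another annotated precursor also holds. The red line covers the whole 5p arm of the miR-181a and miR-181b genes, reaches no 3p arm, and is missing for Mir181c and Mir181d.

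The depth was 3510897 sense reads on miRNA genes in replicate 1 and 3949733 in replicate 2. A level in CPM is the count of a gene per 1e6 such reads. Reads set aside for matching several places were 42.6% and 46.4% of the files. They were 401 and 491 times the reads counted on the family. How many of them were miR-181a-5p or miR-181b-5p cannot be read from the files. Each level below is the level of counted reads, and for the 4 copied genes it is not a measure of the mature 5p miRNA.

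All 6 genes were detected in both animals, with counts in 2 tiers. Mir181d, Mir181b-2, Mir181c and Mir181a-1 had means of 348.9 CPM or more, while Mir181a-2 and Mir181b-1 had means of 27.3 CPM or less. The family together held 2465 CPM (8653 reads) in replicate 1 and 2432 CPM (9607 reads) in replicate 2, a mean of 2448 ± 22.8 CPM (SD, n = 2), or 0.245% of the counted reads. With the sense reads on miRNA genes as the denominator, the sum over the family thus differed little between the animals. Its ratio was 0.987 (95% exact interval 0.959 to 1.02). The ratio of the sum was not computed with all reads of the file as the denominator, where single genes shifted as given below. Intervals here cover counting error only. They treat each read as independent, although reads and not unique molecules were counted, so they may be too narrow.

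Mir181d had the highest mean level, from 2477 reads in replicate 1 and 2889 in replicate 2. Its level was 705.5 and 731.4 CPM, with a mean of 718.5 ± 18.3 CPM (SD, n = 2). Mir181b-2 followed with 2597 and 2399 reads, 739.7 CPM in replicate 1 and 607.4 CPM in replicate 2, a mean of 673.5 ± 93.6 CPM. It was the highest of the 6 genes in replicate 1 and the third in replicate 2. Mir181c stood at 623.2 and 721.8 CPM (2188 and 2851 reads), a mean of 672.5 ± 69.7 CPM. The ranges of the 2 animals overlapped between Mir181d and Mir181b-2 and between Mir181b-2 and Mir181c, so the place of Mir181b-2 is not settled. Mir181d stood above Mir181c in both animals, but in replicate 2 only within counting error.

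Mir181a-1 was the next gene, with 1252 and 1348 reads. It stood at 356.6 CPM in replicate 1 (exact Clopper-Pearson 95% interval 337.1 to 376.9) and 341.3 CPM in replicate 2 (323.3 to 360.0), a mean of 348.9 ± 10.8 CPM. This was below Mir181c in both animals, by 1.93-fold in the means. The ranges did not overlap.

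The lowest members were the other copy at each of the first 2 loci. Mir181a-2 had 111 and 91 reads, 31.6 CPM in replicate 1 (interval 26.0 to 38.1) and 23.0 CPM in replicate 2 (18.6 to 28.3), a mean of 27.3 ± 6.06 CPM. Mir181b-1 had 28 and 29 reads, 7.98 CPM (5.30 to 11.5) and 7.34 CPM (4.92 to 10.5), a mean of 7.66 ± 0.448 CPM. The steps from Mir181a-1 to Mir181a-2, 12.8-fold, and from Mir181a-2 to Mir181b-1, 3.57-fold, both exceeded the spread between the animals. Few reads stand behind these 2 genes. Even so, both lie above the 0.854 and 0.760 CPM that a count of 0 would allow in replicates 1 and 2.

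**Figure D2:**
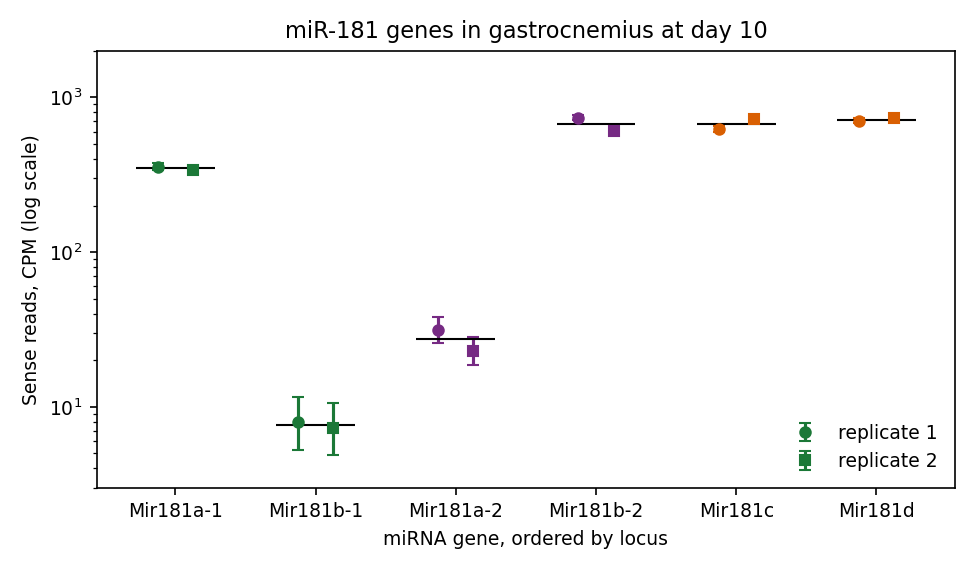
Sense reads on each miR-181 gene in CPM on a log axis, with circles for replicate 1, squares for replicate 2, exact 95% counting intervals as bars, the mean of both animals as a black line and 1 colour per locus. Mir181d, Mir181b-2 and Mir181c have overlapping ranges that together span 607.4 to 739.7 CPM. Mir181a-1 has a mean of 348.9 CPM, and Mir181a-2 and Mir181b-1 lie well below at 27.3 and 7.66 CPM.

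The precursors differ in length, from 72 bases for Mir181d to 89 for Mir181b-2 and Mir181c. Per 100 bases of precursor, the mean level was 998 CPM for Mir181d, 757 for Mir181b-2, 756 for Mir181c, 401 for Mir181a-1, 36.0 for Mir181a-2 and 9.57 for Mir181b-1. The order of the means was the same as without length.

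In the order of all genes by mean CPM, Mir181d ranked 92, Mir181b-2 ranked 96, Mir181c ranked 97, Mir181a-1 ranked 124, Mir181a-2 ranked 226 and Mir181b-1 ranked 281. Each ranked among the 332 detected genes. Likeness of pattern over 2 libraries reduces to likeness of level, so the nearest genes by mean CPM are named. Mir92-1 (755.2 ± 129 CPM) and Mir501 (717.8 ± 58.4 CPM) enclosed Mir181d. Mir484 (678.1 ± 39.5 CPM) stood just above Mir181b-2, and Mir320 (653.9 ± 39.6 CPM) just below Mir181c. Mir188 (350.8 ± 5.89 CPM) and Mir15b (346.0 ± 17.8 CPM) enclosed Mir181a-1. Mir1188 (28.3 ± 2.73 CPM) and Mir1249 (27.1 ± 4.95 CPM) enclosed Mir181a-2, and Mir3107 (8.07 ± 0.671 CPM) and Mir7688 (7.60 ± 2.15 CPM) enclosed Mir181b-1. The range of the 2 animals overlapped that of the miR-181 gene beside it for each of these genes.

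**Figure D3:**
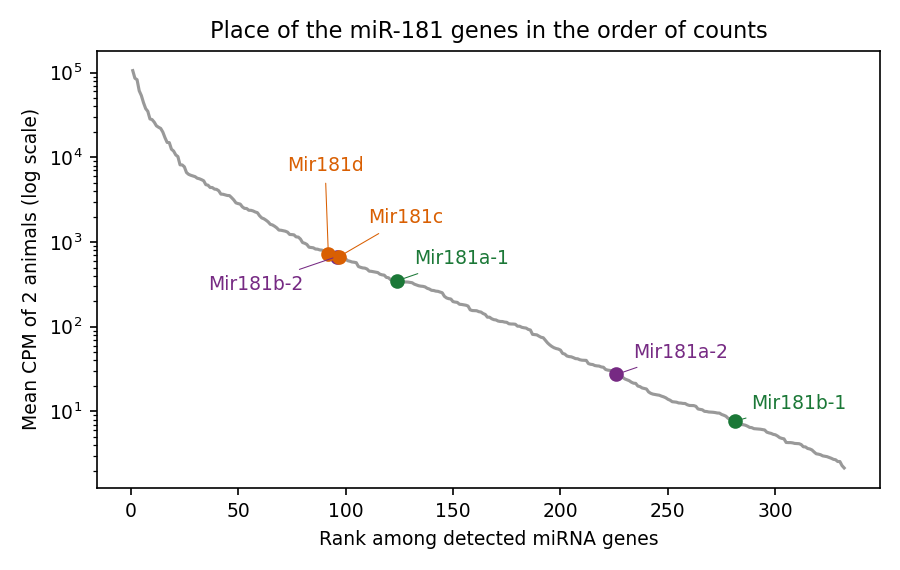
Mean CPM of 2 animals on a log axis against the rank of each of the 332 detected miRNA genes, with the miR-181 genes as coloured points. Mir181d, Mir181b-2 and Mir181c sit together at ranks 92 to 97, Mir181a-1 at 124, Mir181a-2 at 226 and Mir181b-1 at 281.

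The first locus, a-1/b-1, lies on the plus strand of chromosome 1. Mir181a-1 (ENSMUSG00000065565.1, 137966455 to 137966541) and Mir181b-1 (ENSMUSG00000065458.1, 137966639 to 137966718) are 97 bases apart. Both lie in an intron of Gm4258, a processed transcript on the same strand, and opposite an intron of the lincRNA Gm26936. Mir181b-1 lies within an exon of the lincRNA A430106G13Rik, which starts inside the Mir181a-1 precursor. The nearest other annotated miRNA genes on this strand, Gm22232 and Mir7682, are 3157 kb and 13476 kb away and had 0 reads in either library.

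The second locus, a-2/b-2, lies on the plus strand of chromosome 2. Mir181a-2 (ENSMUSG00000065423.1, 38852735 to 38852810) and Mir181b-2 (ENSMUSG00000065578.1, 38853830 to 38853918) are 1019 bases apart, the widest spacing of the 3 loci. Both lie opposite an intron of Nr6a1, which encodes an orphan nuclear receptor, and Mir181b-2 also lies opposite an exon of the unclassified transcript Gm44144. In this annotation no gene contains them on their own strand. Gm47291 and Gm25959, the nearest miRNA genes on this strand, are 6178 kb and 8688 kb away and had 0 reads.

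The third locus, c/d, lies on the minus strand of chromosome 8. Mir181c (ENSMUSG00000065483.2, 84178873 to 84178961) and Mir181d (ENSMUSG00000076338.1, 84178716 to 84178787) are 85 bases apart, with Mir181c first in the direction of transcription. Both lie in an intron of Nanos3, a germ cell gene on the same strand. On this strand the nearest miRNA genes were Mir3074-2 at 29.9 kb (0 and 0.506 CPM) and Mir1199 at 167 kb (0.570 and 0 CPM), both with counts under the floor. Mir23a, named outside the rule, starts 29.6 kb away on the opposite strand and stood at 28409 ± 804 CPM.

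By counted reads, c/d was the highest locus in both animals. It held 1329 CPM (4665 reads) in replicate 1 and 1453 CPM (5740 reads) in replicate 2, a mean of 1391 ± 88.1 CPM. The a-2/b-2 locus held 771.3 and 630.4 CPM (2708 and 2490 reads), a mean of 700.9 ± 99.6 CPM. The a-1/b-1 locus held 364.6 and 348.6 CPM (1280 and 1377 reads), a mean of 356.6 ± 11.3 CPM. The ranges of the 3 loci did not overlap.

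As a share of the family's counted reads, c/d held 53.9% in replicate 1 (exact interval 52.9% to 55.0%) and 59.7% in replicate 2 (58.8% to 60.7%). The a-2/b-2 locus held 31.3% (30.3% to 32.3%) and 25.9% (25.0% to 26.8%). The a-1/b-1 locus held 14.8% (14.1% to 15.6%) and 14.3% (13.6% to 15.0%). The share of a-1/b-1 agreed between the animals within its counting error, while those of the other loci did not. Only c/d can count reads of exactly its mature 5p arms, so this order says nothing of the total output of the loci.

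**Figure D4:**
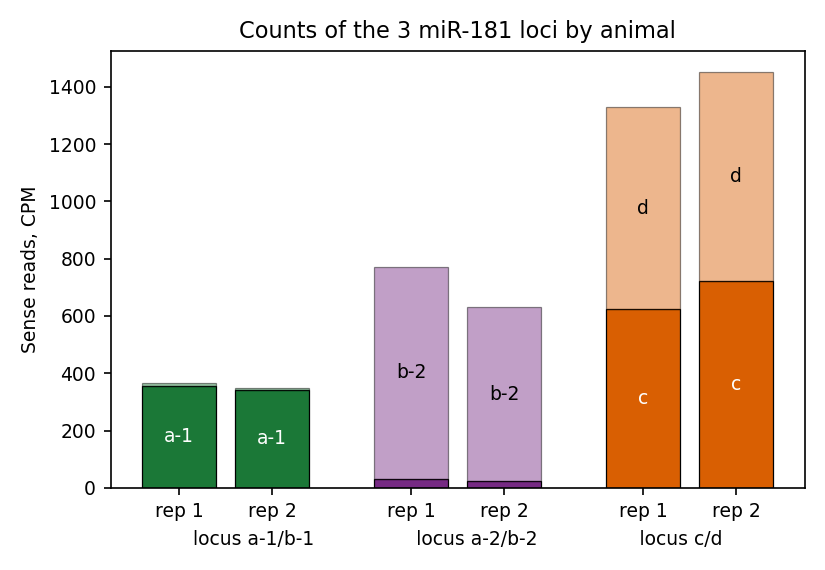
Stacked bars of sense reads in CPM at the 3 miR-181 loci in each animal, with a solid segment for the first gene of a locus and a pale segment for its partner. The c/d bars are built from near-equal segments, whereas a-1 fills nearly all of its locus and b-2 nearly all of its own.

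Partners within a locus were counted evenly at c/d and unevenly at the others. Mir181c over Mir181d was 0.883 in replicate 1 (exact interval 0.834 to 0.936) and 0.987 in replicate 2 (0.937 to 1.04), a mean of 0.935 ± 0.0732. The intervals of the animals did not overlap, by a narrow margin. Per base of precursor the mean ratio was 0.756.

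At a-1/b-1 the miR-181a gene had the higher count. Mir181a-1 over Mir181b-1 was 44.7 in replicate 1 (30.8 to 67.6) and 46.5 in replicate 2 (32.2 to 69.7), a mean of 45.6 ± 1.25. At a-2/b-2 the direction was the opposite, with the miR-181b gene higher. Mir181b-2 over Mir181a-2 was 23.4 (19.3 to 28.6) and 26.4 (21.4 to 32.9), a mean of 24.9 ± 2.10. In both of these loci the animals agree within counting error.

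The same counts read by copy give Mir181b-2 over Mir181b-1 at 92.8 (64.0 to 140) and 82.7 (57.4 to 124), a mean of 87.7 ± 7.09. Mir181a-1 over Mir181a-2 was 11.3 (9.28 to 13.8) and 14.8 (12.0 to 18.5), a mean of 13.0 ± 2.50. Thus, by counted reads, the higher miR-181a copy and the higher miR-181b copy lay at different loci. These ratios compare only reads that could be placed at a single copy. For miR-181b such reads include those that run 1 base past the 3′ end of the printed 5p arm, where the copies part. The next base is t in Mir181b-2 and g in Mir181b-1. A read from Mir181b-1 with an untemplated U there would match Mir181b-2, and the part of such reads in these ratios was not tested.

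Other genes of the same kinds were set beside these ratios. Of 92 pairs of detected miRNA genes that are neighbours on a strand at most 10 kb apart, 22 differed by over 20-fold in mean CPM, among them a-1/b-1 (45.6-fold in the means) and a-2/b-2 (24.6-fold). The c/d pair had the 4th smallest ratio (1.07-fold), and the median over the 89 pairs outside the family was 4.91-fold. Of 16 gene names with exactly 2 numbered copies among the annotated genes, both detected, Mir181b had the second largest ratio (87.9-fold) and Mir181a the sixth (12.8-fold). The other 14 ranged from 1.29-fold to 98.5-fold, with a median of 3.40-fold.

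The ratio between the libraries was tested for each gene with a two-sided exact binomial test against the ratio of the library totals, adjusted by Benjamini-Hochberg over all 395 genes tested. It compares these 2 libraries and not conditions. Ratios are given as replicate 2 over replicate 1. Of the 6 miR-181 genes, 2 had an adjusted p under 0.05, 1 in each direction, where 41.3% of all genes tested did so (17.0% higher and 24.3% lower in replicate 2). With a limit of 2-fold added, 0 of 6 were called, against 7.09% of all genes. At an unadjusted p under 0.05 by the same exact test the number was 3 of 6, against 47.1% of all genes. With all reads of the file as the denominator, 4 of 6 passed after adjustment, all of them lower in replicate 2, and over all genes 8.10% were then higher and 37.0% lower.

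Mir181b-2 was lower in replicate 2, at 0.821 times the level of replicate 1 (interval 0.776 to 0.868, exact adjusted p = 2.45e-11). Mir181a-2, its partner, had a ratio of 0.729 (0.546 to 0.970), which missed the threshold after adjustment (exact adjusted p = 0.0654). The sum of the a-2/b-2 locus had a ratio of 0.817 (0.774 to 0.863).

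Mir181c was higher in replicate 2, at 1.16 times (1.10 to 1.23, exact adjusted p = 1.05e-06). Mir181d had a ratio of 1.04 (0.982 to 1.09, exact adjusted p = 0.314), and the sum of c/d one of 1.09 (1.05 to 1.14). At the first locus Mir181a-1 had a ratio of 0.957 (0.886 to 1.03, exact adjusted p = 0.411) and Mir181b-1 one of 0.921 (0.529 to 1.61, exact adjusted p = 0.870). The interval of Mir181b-1 rests on 28 and 29 reads. With the total of all reads in the file as the denominator, Mir181c lost its call (log2 ratio 0.062, exact adjusted p = 0.217), and Mir181d turned to a log2 ratio of -0.10 (exact adjusted p = 0.0308).

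Partners of a locus had ratios on the same side of 1 in each of the 3 loci, beside 65.2% of the 89 neighbour pairs outside the family. With all reads of the file as the denominator this held for 2 of the 3 loci, with Mir181c and Mir181d on opposite sides, and for 84.3% of the other pairs. The median size of the log2 ratio over the 6 genes was 0.17, beside 0.27 over all genes tested. The median coefficient of variation of the 6 genes was 8.11%, beside 10.2% over all detected genes.

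**Figure D5:**
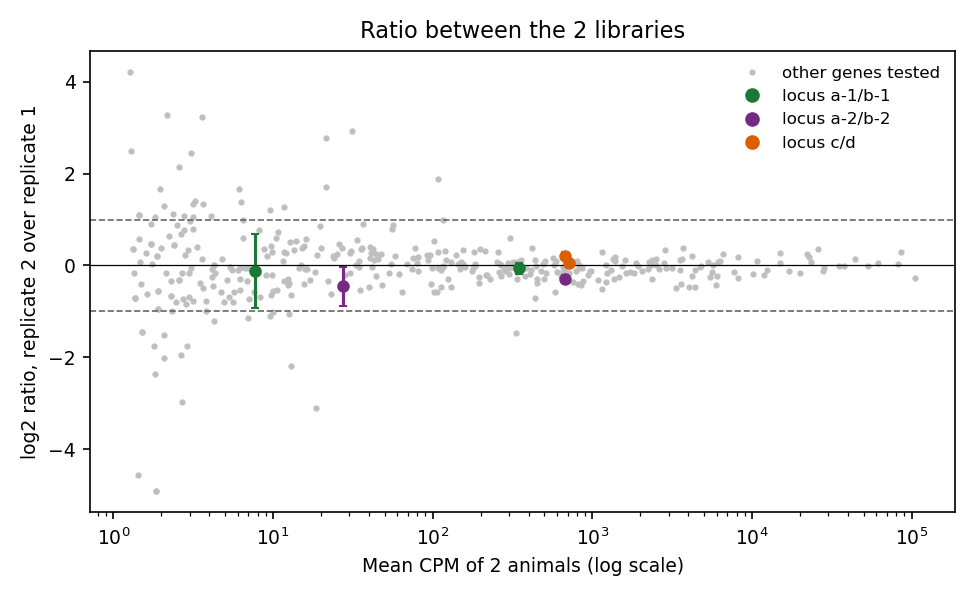
Log2 ratio of replicate 2 over replicate 1 against mean CPM (log axis) for all 395 genes tested in grey and the miR-181 genes coloured by locus, with exact 95% counting intervals. Dashed lines mark 2-fold, and all 6 miR-181 genes lie between them, with the a-2/b-2 genes below 0 and the c/d genes above 0 (with all reads of the file as the denominator, Mir181d lies below 0).

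A list of 25 genes known from muscle differentiation gave the surroundings of the family in this tissue. Of these, 22 were detected, 5 stood above Mir181d and 5 below Mir181b-1. The highest by counted reads was Mir206, a miRNA particular to skeletal muscle, at 105606 ± 14626 CPM. The lowest was Mir133a-2, one of the miR-133a copies, at 1.04 ± 0.671 CPM, and reads of copied genes were set aside here too. Of 24 tested, 8 were higher and 3 lower in replicate 2 at an adjusted p under 0.05 by the exact binomial test, beside 17.0% and 24.3% of all genes tested. Past 2-fold there were 0 of 24, beside 7.09%. The median log2 ratio of the list was 0.18, beside -0.092 for the miR-181 genes and -0.029 over all genes tested.

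Markers of the tissue and of other cells in it were present. The 9 skeletal muscle miRNAs, with 8 detected, summed to 116658 CPM in replicate 1 and 96096 in replicate 2, and Mir206 alone went from 115948 to 95264 CPM. Mir1a-1, Mir1a-2, Mir133a-1 and Mir133a-2 in this list are numbered copies, and reads that match several copies were set aside. The sum may therefore leave out reads of these miRNAs, and the share of Mir206 in it holds for counted reads only. Against the direction of the sum, 7 of the 8 tested had a ratio above 1 in replicate 2 (median log2 ratio 0.32), with 3 higher and 1 lower at an adjusted p under 0.05 by the exact binomial test. All 5 leukocyte miRNAs were detected and summed to 1099 and 974.2 CPM, 4 of them with a lower and 1 with a higher value in replicate 2, and 3 and 0 at an adjusted p under 0.05 by the exact binomial test. Mir126a, the endothelial miRNA, stood at 42036 and 46314 CPM. Of 9 neural and glial miRNAs, 2 were detected and 4 had 0 reads in either library, with sums of 249.8 and 377.2 CPM. Of these sums, Mir338 alone was 243.0 and 366.9 CPM. The genes with 0 reads were the numbered copies Mir124a-1, Mir124a-2, Mir124a-3 and Mir9-2. Reads that match several copies were set aside, so a count of 0 does not show absence. The 2 erythroid miRNAs summed to 2066 and 1865 CPM. The 5 of stroma and smooth muscle summed to 27437 and 32714 CPM, of which Mir143 was 22806 and 29190 CPM. Of 4 tested in that list, 1 was higher and 2 (Mir214 and Mir199a-2) were lower in replicate 2 at an adjusted p under 0.05 by the exact binomial test, and the median log2 ratio was -0.19. The part of these cell types in the miR-181 counts was not tested.

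Reads on the strand opposite the miR-181 genes numbered 0 in either library for all 6 genes. Counting without strand gave the same 6 counts as the sense column.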

How the data were processed

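Small RNA libraries from 2 gastrocnemius samples were used, grouped and numbered by their labels. The deposited files hold raw read counts per miRNA gene (unstranded, sense and antisense) for 2202 genes, with build mm10 and annotation GENCODE M21 per the descriptions deposited beside them. For the aligner, the trimming and any filters: not given in the sources used here. The strand columns were read from the layout and totals. Per the file rows, 56.9% and 61.2% of reads were unaligned, placed at several sites or outside miRNA genes, and these rows stayed out of totals and tests.

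From the sense counts, CPM was computed over the sense total of each library. Detected means 2 CPM or more in both. Shares have exact Clopper-Pearson 95% intervals, and the limit for a count of 0 is 3 counts. The test across genes was an exact conditional binomial test (scipy 1.17.1) on genes with a summed count of 10 or more, called at an adjusted p under 0.05 and 2-fold. Log2 ratios add 0.5 to each count. On simulated libraries with 391 eligible genes it called 94.7% of tested genes changed 4-fold, 86.3% of those changed 3-fold and 0 of 198 unchanged genes. The simulated counts held Poisson counting error only. In the real libraries the common coefficient of variation beyond counting error was 0.189 (edgeR, 320 genes with 10 or more counts in each). The simulation therefore does not show how often that variation alone leads to a call. Alternatives used TMM (edgeR 4.0.16) and size factors (DESeq2 1.42.0, R 4.3.3).

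Shared sequence was searched on both strands among the 2202 annotated precursors, leaving out those that overlap the gene. Identical sequence elsewhere in the genome was not searched. All 6 genes matched the RefSeq miRNA table by symbol. Named genes were the members, the genes beside each in mean CPM, the nearest miRNA genes on the strand of each locus, and the highest and lowest of the muscle list. The members and lists were chosen with earlier results of these data known.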

Additional observations from a re-analysis of the deposited data

How the results depend on the processing

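Of 132 values recomputed for 26 results, 96 stayed the same by the rule for their kind. Ratios between the libraries kept their direction and side of the threshold. Levels and ratios between genes or loci moved by less than the spread between the animals. Counts of genes stayed within a set fold of the main count. Part of these were fixed in advance. With n = 2, leaving out 1 animal always moves a mean by less than the SD, which holds for 18 values per animal. The members' unstranded and sense counts are equal, so their ratios could not differ. An added count of 1 does not enter the p-value, so those 6 values could not cross the threshold. Levels scaled with the denominator. With all reads of the file, Mir181a-1 stood at 143.0, Mir181b-1 at 3.14, Mir181a-2 at 11.3, Mir181b-2 at 277.2, Mir181c at 274.3 and Mir181d at 293.9 per 1e6 reads, the loci a-1/b-1, a-2/b-2 and c/d at 146.2, 288.4 and 568.2, and the family at 1003. With unstranded counts and their total, Mir181a-1 stood at 417.5 CPM, Mir181b-1 at 9.16, Mir181b-2 at 805.1, Mir181c at 805.4 and Mir181d at 859.9, the loci at 426.6, 837.7 and 1665, and the family at 2930. Without Mir206 in the total, Mir181a-1 stood at 390.3 CPM, Mir181b-1 at 8.57, Mir181c at 751.4 and Mir181d at 803.3, the loci a-1/b-1 and c/d at 398.9 and 1555, and the family at 2738. The order of the loci within a library could not change under these denominators, because the same total divides all 3 loci. Per base of precursor, the ratio of Mir181a-1 over Mir181b-1 was 41.9, of Mir181b-2 over Mir181a-2 21.2, of Mir181c over Mir181d 0.756 and of Mir181b-2 over Mir181b-1 78.9.

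Between the libraries, with all reads of the file as the denominator, the log2 ratio was -0.21 for Mir181a-1 and -0.61 for Mir181a-2, both then past the threshold, 0.062 for Mir181c, no longer past it, and -0.10 for Mir181d, reversed in sign. With DESeq2 size factors Mir181d passed the threshold at 0.11. The replicates differ in the share of reads set aside, and its part in this was not tested. Without a fold limit 163 genes passed in place of 28. With windows of 18 or 20 bases the same number of members, 4, shared sequence. Leaving out 1 animal leaves no comparison of libraries. The levels then ran from 348.6 to 364.6 CPM for a-1/b-1, 630.4 to 771.3 for a-2/b-2 and 1329 to 1453 for c/d. No paired analysis was possible because the samples form 1 group. Mir181b-1, at 28 and 29 reads, is the value most limited by depth.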
